A study of Mus musculus with 37 samples.

Results

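Hoxb1, Hoxd1, Hoxa2 and Hoxb2 belong to Hox paralogue groups 1 and 2, the genes at the anterior end of the Hox clusters. They were taken by name from the 35542 genes with raw counts, all 4 are among the 39 Hox genes with deposited log2 RPKM values, and all 4 passed the filter on low counts in every fit. Expression was measured by poly(A) RNA-seq in the tailbuds of 37 single C57BL/6/Cast F1 mouse embryos with 6 to 11 somites. The 21 Smchd1wt embryos, labelled Smchd1[fl/+], had a floxed maternal allele, and the 16 Smchd1matΔ embryos, labelled Smchd1[del/+], had a deleted maternal allele. SMCHD1 is an epigenetic repressor of the structural maintenance of chromosomes family. Smchd1wt mothers were Smchd1 fl/fl without the Cre transgene, Smchd1matΔ mothers were Smchd1 del/fl with MMTV-Cre and gave oocytes null for Smchd1, and all fathers were Cast males with intact Smchd1. Because Smchd1matΔ embryos were also heterozygous, lack of the oocyte's SMCHD1 and lack of a gene copy cannot be told apart, nor can either be told apart from the genotype of the mother. There were 4 Smchd1wt and 4 Smchd1matΔ embryos at 6 somites, 4 and 3 at 7, 3 and 2 at 8, 3 and 2 at 9, 4 and 3 at 10, and 3 and 2 at 11 somites. Females made up 13 of 21 Smchd1wt and 11 of 16 Smchd1matΔ embryos, among them every embryo with 6 somites and every Smchd1matΔ embryo with 8 or 9 somites.

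Hox genes encode homeodomain transcription factors that give cells along the head-to-tail axis their position. Genes at the anterior (3′) end of each cluster are switched on first in the primitive streak, in response to Wnt and retinoic acid signals, and more posterior genes follow in turn. Groups 1 and 2 are best known for their work in the hindbrain and its neural crest, and they are also transcribed early in the streak and the tissue that replaces it, the tailbud. HOX proteins of these groups bind DNA together with PBX and MEIS cofactors, and the Hoxb1 gene is known to maintain its own transcription through such sites upstream of its promoter.

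The promoters are shown because the members share cofactor motifs there in part, a feature that took no part in their choice. The RefSeq promoter table (GRCm38.p6) matched 3 of the 4 members, and Hoxb2 has no entry. Bases before the gene start are printed 5′ to 3′ on the strand of the gene, with matches to the PBX-HOX motif TGATNNAT, read on either strand, in capitals.

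Hoxb1, chr11:96365508-96365751, + strand: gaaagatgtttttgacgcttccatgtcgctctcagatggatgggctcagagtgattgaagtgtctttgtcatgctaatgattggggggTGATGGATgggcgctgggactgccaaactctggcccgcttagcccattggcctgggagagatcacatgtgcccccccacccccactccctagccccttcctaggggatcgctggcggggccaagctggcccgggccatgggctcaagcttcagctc

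Hoxd1, chr2:74762730-74762979, + strand: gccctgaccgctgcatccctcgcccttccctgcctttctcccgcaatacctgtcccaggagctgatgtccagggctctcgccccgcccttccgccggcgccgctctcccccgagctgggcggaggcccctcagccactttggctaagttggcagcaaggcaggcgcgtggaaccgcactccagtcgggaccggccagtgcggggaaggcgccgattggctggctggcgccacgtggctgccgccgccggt

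Hoxa2, chr6:52164832-52165081, - strand: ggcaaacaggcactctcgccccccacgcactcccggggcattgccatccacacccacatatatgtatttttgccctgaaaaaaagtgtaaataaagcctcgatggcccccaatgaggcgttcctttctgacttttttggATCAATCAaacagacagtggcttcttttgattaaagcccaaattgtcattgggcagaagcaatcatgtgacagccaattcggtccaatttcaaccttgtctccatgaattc

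The motif was found in Hoxb1 at positions -162 to -155 (TGATGGAT) and in Hoxa2 at positions -111 to -104 (on the opposite strand, ATCAATCA), counted from the RefSeq start. Hoxd1 held no match in its 250 bases. Of 32851 promoters of 250 bases, 7.68% held this motif. The MEIS motif TGACAG, present in 15.9% of promoters, was found in Hoxa2 at positions -44 to -39. AGGTCA, a motif of nuclear receptors in general and present in 14.0%, was found in none of the 3. These are matches of letters and no measurement of binding was made.

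Hoxb1 (ENSMUSG00000018973) lies on chromosome 11 at 96365752 to 96368256, + strand, and Hoxb2 (ENSMUSG00000075588) lies upstream of it at 96350525 to 96354012, + strand (GRCm38). Hoxd1 (ENSMUSG00000042448) lies on chromosome 2 at 74762980 to 74765142, + strand, and Hoxa2 (ENSMUSG00000014704) on chromosome 6 at 52162417 to 52164831, - strand. In the GENCODE M21 annotation no other gene shares exons with Hoxb1 or Hoxd1. The antisense transcript Hoxb3os covers 27.3% of the exon bases of Hoxb2, and Gm28308, on the same strand, covers 15.04% of those of Hoxa2. Which of the stranded and unstranded kits made each library is not given in the sources used here, so the values of Hoxb2 may hold reads of Hoxb3os. Those of Hoxa2 may hold reads of Gm28308 with either kit, since both lie on the same strand.

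Sequencing depth was 3061180 to 80579115 counts per Smchd1wt library and 916444 to 30156555 per Smchd1matΔ library. Smchd1 itself was at 149 ± 23.0 CPM (counts scaled to a common library size, SD, n = 21) in Smchd1wt and 88.7 ± 13.4 CPM (SD, n = 16) in Smchd1matΔ embryos, which is -0.74 on the log2 scale (SE 0.075, edgeR's quasi-likelihood test, adjusted p = 1.45e-07). The tailbud markers were present in all embryos, with a sum over 10 genes of 680 to 1705 CPM, whereas hindbrain Egr2 was at 0 counts in 30 of the 37 embryos, and the sum over 5 forebrain and midbrain markers was at most 2.99 CPM. The sum over 5 hindbrain markers was 27.3 to 57.6 CPM, most of it from Fgf3 (median 39.7 CPM), a gene also transcribed in the tailbud. In bulk tissue, fewer cells that express a gene and less RNA per cell cannot be told apart.

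The Smchd1wt library of replicate 1 at 10 somites stood apart. It had the lowest tailbud marker sum of all embryos (680 CPM, against 1199 to 1265 CPM in the other 3 Smchd1wt embryos of its stage), and 7 of the 10 tailbud markers had their lowest value there. Its sum over 4 primitive erythroid markers was 3782 CPM, with 2 embryos above it, and that over 4 visceral endoderm markers was 2306 CPM, again with 2 embryos above it. Values that moved most with it are given with and without it, and the part of its tissue make-up in them was not tested. Further values were low in counts. The shallowest library, Smchd1matΔ replicate 3 at 6 somites, held 6 counts of Hoxa2, 32 of Hoxb2, 45 of Hoxd1 and 71 of Hoxb1.

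Levels were compared on the deposited log2 RPKM scale, which corrects for transcript length. Hoxd1 had the highest mean level of the 4 (5.11 ± 0.28, SD, n = 37) and stood at rank 6 of the 39 Hox genes listed. Hoxb1 followed at 4.80 ± 0.42 and rank 7, then Hoxb2 at 3.81 ± 0.23 and rank 17, and Hoxa2 at 2.80 ± 0.36 and rank 22. Within single embryos Hoxa2 was the lowest in all 37 and Hoxb2 the next in 36. Hoxb2 lay above Hoxa2 by 0.97 ± 0.35 in Smchd1wt embryos (SD of the difference within an embryo, n = 21) and Hoxb1 above Hoxb2 by 0.96 ± 0.46. These gaps and the ranks depend on the length used. The annotated exons of Hoxb2 cover 3488 bases, the whole span of the gene, of which 1062 are coding. On log2 CPM, not corrected for length, Hoxb1 minus Hoxb2 was 0.37 ± 0.46 in Smchd1wt embryos (SD, n = 21). On that scale Hoxa2 minus Hoxb2 was -1.93 ± 0.34 and Hoxd1 minus Hoxb1 0.10 ± 0.51. Hoxd1 and Hoxb1, the highest pair, did not hold an order. Hoxd1 led in 16 of 21 Smchd1wt and 8 of 16 Smchd1matΔ embryos, and their difference of 0.42 ± 0.51 in Smchd1wt was smaller than its spread.

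**Figure D1:**
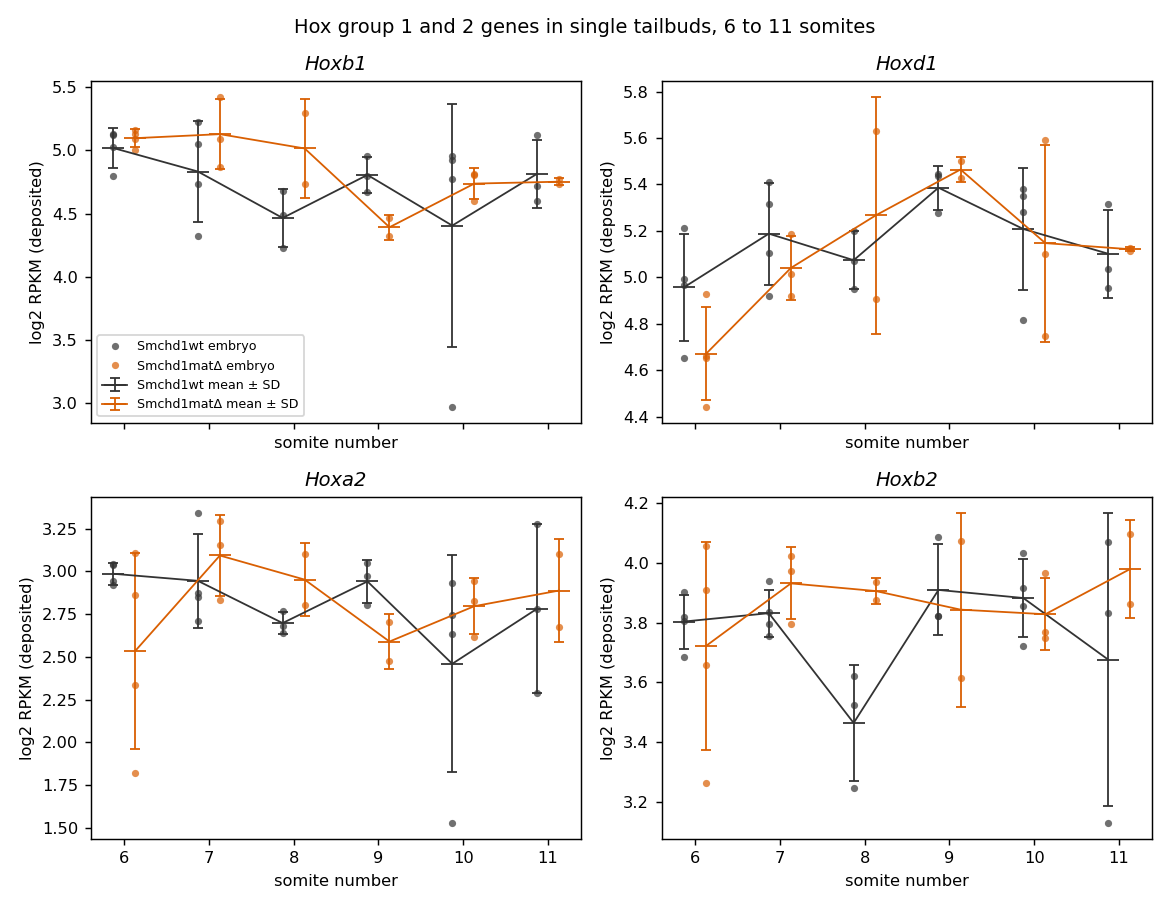
Deposited log2 RPKM of Hoxb1, Hoxd1, Hoxa2 and Hoxb2 (vertical axes, a separate range for each gene) in single embryos by somite number (horizontal axes), Smchd1wt in grey and Smchd1matΔ in orange, points displaced sideways by genotype, with the mean ± SD of each group. The low Smchd1wt points at 10 somites are replicate 1 (Hoxb1 2.97, Hoxa2 1.53), and the genotypes overlap at most stages.

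Hoxb1, which specifies the fourth rhombomere of the hindbrain and is an early marker of the primitive streak, was high at 6 somites in both genotypes. At 6 somites Hoxb1 was at log2 RPKM 5.13, 5.03, 4.80 and 5.12 in the Smchd1wt and 5.09, 5.13, 5.0 and 5.16 in the Smchd1matΔ embryos. At 7 somites it was at 5.22, 4.32, 5.05 and 4.74 in Smchd1wt and at 5.43, 5.09 and 4.87 in Smchd1matΔ embryos. The genotypes overlapped at both stages, and the low Smchd1wt value of 4.32 came from a library of 3061180 counts with 147 counts of the gene. At 8 somites Hoxb1 was at 4.68, 4.49 and 4.23 in Smchd1wt and at 4.74 and 5.29 in Smchd1matΔ embryos, so that both Smchd1matΔ embryos were higher. At 9 somites the order was the opposite, with 4.95, 4.67 and 4.80 in Smchd1wt and 4.32 and 4.46 in Smchd1matΔ embryos. At 10 somites it was at 2.97, 4.92, 4.77 and 4.96 in Smchd1wt and at 4.60, 4.80 and 4.81 in Smchd1matΔ embryos. The value of 2.97 (160 counts) is that of the library that stood apart, and no other embryo of the 37 lay below 4.23. At 11 somites the genotypes overlapped again, with 4.72, 5.12 and 4.60 in Smchd1wt and 4.77 and 4.73 in Smchd1matΔ embryos.

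Hoxd1, which in the embryo is transcribed mainly in mesoderm and later in sensory neurons, had its lowest group mean at 6 somites and its highest at 9 somites in both genotypes. At 6 somites it was at log2 RPKM 4.97, 4.99, 5.21 and 4.65 in Smchd1wt and at 4.65, 4.44, 4.66 and 4.93 in Smchd1matΔ embryos. At 9 somites it was at 5.44, 5.28 and 5.44 in Smchd1wt and at 5.43 and 5.50 in Smchd1matΔ embryos. All 5 embryos with 9 somites thus lay above all 8 embryos with 6 somites. These stages were picked after the values were seen, and the share of all genes so separated was not computed. Every embryo with 6 somites was female, and over all embryos Hoxd1 was at r = 0.38 with log2 library depth. For Hoxb2, Hoxa2 and Hoxb1 that r was 0.41, 0.31 and 0.047. The part of sex or depth in the Hoxd1 values was not tested. At 11 somites the level was 5.04, 4.95 and 5.32 in Smchd1wt and 5.11 and 5.13 in Smchd1matΔ embryos. The largest SD of a group, 0.51, was that of the Smchd1matΔ embryos at 8 somites, with 5.63 and 4.91. At 7 somites the group means ± SD were 5.19 ± 0.22 (n = 4) in Smchd1wt and 5.04 ± 0.14 (n = 3) in Smchd1matΔ embryos, and at 10 somites 5.21 ± 0.26 (n = 4) and 5.15 ± 0.42 (n = 3).

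Hoxa2, the gene that patterns the neural crest of the second branchial arch, was the least abundant member, with a median of 169 counts per library. At 6 somites it was at log2 RPKM 2.94, 3.04, 3.04 and 2.92 in Smchd1wt and at 2.34, 3.11, 1.82 and 2.86 in Smchd1matΔ embryos. The Smchd1matΔ value of 1.82 rests on the 6 counts of the shallowest library. At 8 somites Hoxa2 was at 2.77, 2.64 and 2.68 in Smchd1wt and at 2.80 and 3.10 in Smchd1matΔ embryos, which lay above. At 9 somites it was at 3.05, 2.97 and 2.80 in Smchd1wt and at 2.70 and 2.47 in Smchd1matΔ embryos, which lay below. At 10 somites the library that stood apart had the lowest value of all 37 embryos, 1.53 (45 counts), against 2.63, 2.75 and 2.93 in the other Smchd1wt and 2.62, 2.83 and 2.94 in the Smchd1matΔ embryos. At 7 somites the means ± SD were 2.94 ± 0.28 (n = 4) in Smchd1wt and 3.09 ± 0.24 (n = 3) in Smchd1matΔ embryos, and at 11 somites 2.78 ± 0.49 (n = 3) and 2.89 ± 0.30 (n = 2).

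Hoxb2, a hindbrain gene activated by EGR2 and by HOXB1 in the rhombomeres, had the narrowest spread over embryos (SD 0.23, n = 37). At 8 somites it was at log2 RPKM 3.62, 3.25 and 3.52 in Smchd1wt and at 3.87 and 3.94 in Smchd1matΔ embryos, so that the groups did not overlap. At 11 somites it was at 3.13, 4.07 and 3.83 in Smchd1wt and at 4.10 and 3.86 in Smchd1matΔ embryos. The Smchd1wt value of 3.13 was the lowest of all 37 embryos. The library that stood apart for Hoxb1 and Hoxa2 did not do so for Hoxb2, where it was at 3.72 against 3.86 to 4.04 in the other Smchd1wt embryos with 10 somites. Group means at 6, 7, 9 and 10 somites were 3.80, 3.83, 3.91 and 3.88 in Smchd1wt and 3.72, 3.93, 3.84 and 3.83 in Smchd1matΔ embryos, with SDs of 0.079 to 0.35.

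The change of each member with somite number was tested on the counts in each genotype as a linear slope, which can miss a rise followed by a fall. None of the 4 members had a slope past the threshold in the Smchd1wt embryos, where 5.76% of 14857 genes did (edgeR's quasi-likelihood test, adjusted p under 0.05). Of the 4, 0 had an unadjusted p under 0.05, against 20.6% of genes. The slopes in Smchd1wt were -0.05 log2 per somite for Hoxb1 (SE 0.046, adjusted p = 0.580), 0.04 for Hoxd1 (SE 0.025, adjusted p = 0.458), -0.05 for Hoxa2 (SE 0.039, adjusted p = 0.503) and 0.01 for Hoxb2 (SE 0.027, adjusted p = 0.924). Without the library that stood apart the slope was -0.03 for Hoxb1 and -0.03 for Hoxa2, and 1943 genes passed in place of 856. None of the 4 had a slope past the threshold in the Smchd1matΔ embryos either, where 4.19% of 15255 genes did. Of the 4, Hoxb1 and Hoxd1 had an unadjusted p under 0.05, as had 20.2% of genes. The Smchd1matΔ slope of Hoxb1 was -0.10 (SE 0.031, adjusted p = 0.0628, edgeR), and its alternatives gave adjusted p-values from 0.0218 to 0.236, the lowest under the Wald test of DESeq2, the only alternative under which it passed. The Smchd1matΔ slope was 0.09 for Hoxd1 (SE 0.039, adjusted p = 0.170), -0.01 for Hoxa2 (SE 0.042, adjusted p = 0.948) and 0.01 for Hoxb2 (SE 0.025, adjusted p = 0.808). The slopes were not shown to differ between genotypes. In the test of the difference the values were -0.05 for Hoxb1 (SE 0.061), 0.06 for Hoxd1 (SE 0.047), 0.04 for Hoxa2 (SE 0.059) and 0.01 for Hoxb2 (SE 0.039), each with an adjusted p of 1.0, and 0 of 15762 genes passed by edgeR (637 or 4.04% at an unadjusted p under 0.05, and 0 by DESeq2).

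Hox genes of later groups were followed beside the members. Of the 7 Hox genes of groups 3 and 4, Hoxd3 alone rose in each genotype, by 0.12 in Smchd1wt (SE 0.025, adjusted p = 0.00321) and 0.19 in Smchd1matΔ embryos (SE 0.034, adjusted p = 0.00230), and the median slope of the 7 was 0.03 and 0.08. Of the 15 genes of groups 5 to 9, 7 rose in Smchd1wt and 8 in Smchd1matΔ embryos and none fell, with median slopes of 0.07 and 0.15. In Smchd1wt, Hoxc9 rose by 0.39 (adjusted p = 3.88e-05), Hoxd8 by 0.30 (adjusted p = 2.74e-05) and Hoxa9 by 0.29 (adjusted p = 4.89e-05) per somite. The median slope of the 4 members was -0.02 and 0.00255, and that of all genes tested -0.00087 and 0.0014, in Smchd1wt and Smchd1matΔ embryos.

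**Figure D2:**
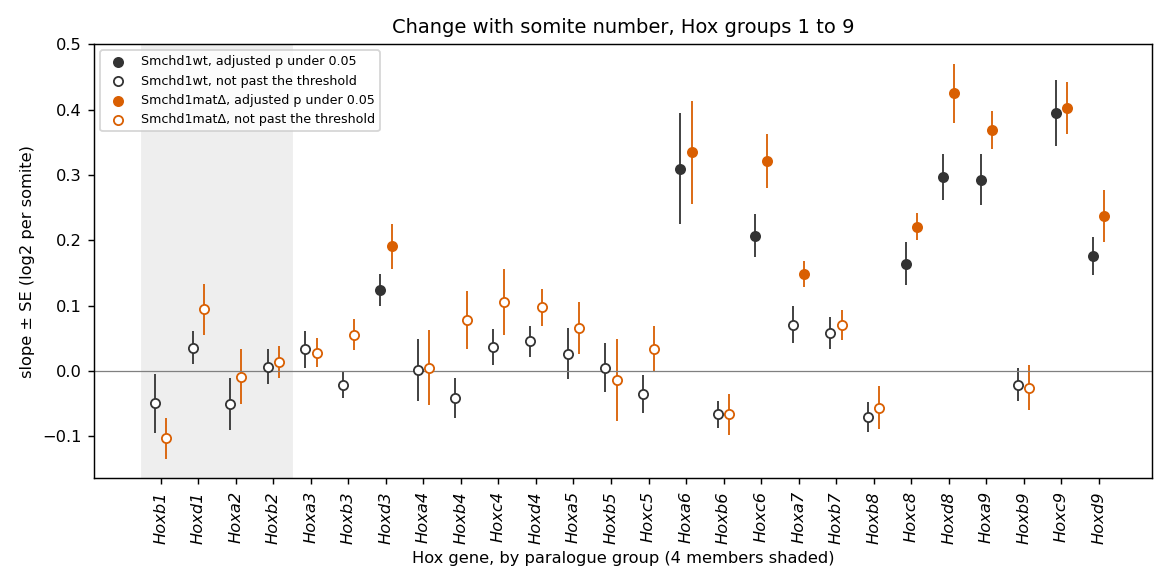
Slope on somite number (log2 per somite, vertical axis) with its SE for Hox genes of groups 1 to 9 (horizontal axis), in Smchd1wt (grey) and Smchd1matΔ (orange) embryos, filled where the adjusted p of edgeR's quasi-likelihood test is under 0.05. The 4 members (shaded) lie between -0.10 and 0.09 with open points, and the filled points at the right, of groups 6 to 9, lie above.

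Genotypes were compared to ask whether maternal deletion of Smchd1 alters these genes at matched somite number. None of the 4 members passed in any comparison on counts. Over all stages 2 of 15978 genes (0.0125%) passed, and the log2 fold changes of the members, Smchd1matΔ against Smchd1wt, were 0.10 for Hoxb1 (SE 0.11, adjusted p = 0.919), -0.06 for Hoxd1 (SE 0.073, adjusted p = 0.946), 0.01 for Hoxa2 (SE 0.10, adjusted p = 0.999) and 0.09 for Hoxb2 (SE 0.066, adjusted p = 0.883, edgeR). No member had an unadjusted p under 0.05 there, against 5.67% of genes. At 6 to 8 somites, where 1 of 15652 genes (0.00639%) passed, Hoxb1 had the largest value of the 4, 0.30 (SE 0.11, adjusted p = 0.486), against -0.11 for Hoxd1 (SE 0.11), 0.03 for Hoxa2 (SE 0.14) and 0.12 for Hoxb2 (SE 0.083), whose adjusted p-values were 0.754 to 0.983. An unadjusted p under 0.05, as Hoxb1 had there, was found for 7.77% of genes. At 9 to 11 somites 1 of 15757 genes (0.00635%) passed, and the members were at -0.05 (Hoxb1, SE 0.19), 0.03 (Hoxd1, SE 0.099), 0.07 (Hoxa2, SE 0.16) and 0.05 (Hoxb2, SE 0.11), all with an adjusted p of 1.0 and none with an unadjusted p under 0.05, which 1.88% of genes had. Without the library that stood apart Hoxb1 was at -0.21 (adjusted p = 0.864) in this window, Hoxd1 at -0.01 and Hoxa2 at -0.04. Of the marker lists, the 3 somite markers tested had positive log2 fold changes over all stages (median 0.74, each with an unadjusted p under 0.05, none past the threshold), as had the 10 tailbud markers (median 0.08, 1 with an unadjusted p under 0.05). The sum of all 6 somite markers had a median of 15.1 CPM in Smchd1matΔ and 16.4 CPM in Smchd1wt embryos. Its maxima were 164 and 26.2 CPM. At 6 to 8 somites 9 of the 10 tailbud markers had higher values in Smchd1matΔ and 1 a lower one (median 0.14, 2 with an unadjusted p under 0.05, edgeR). The 3 somite markers tested were higher there, each with an unadjusted p under 0.05. The 4 endothelial (median -0.22, 2 with an unadjusted p under 0.05) and 4 visceral endoderm markers (median -0.61, 3 so) were lower. None of these markers passed the threshold in that window. The part of these markers in the members' values was not tested.

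The genotype effect on Hoxb1 was then compared between the windows. The difference, late minus early, was -0.33 (SE 0.22, adjusted p = 1.0, edgeR), and -0.50 without the library that stood apart (adjusted p = 0.498). For the other members it was 0.15 (Hoxd1, SE 0.15), 0.07 (Hoxa2, SE 0.21) and -0.07 (Hoxb2, SE 0.14). By edgeR 0 of 16265 genes passed this test (577 or 3.55% at an unadjusted p under 0.05), and 2 passed by DESeq2.

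At single stages the log2 RPKM values were compared by exact permutation tests over embryos. Of 24 comparisons, 4 genes at 6 stages, the groups did not overlap in 5, all of them at 8 or 9 somites, where 3 Smchd1wt embryos face 2 Smchd1matΔ embryos and the smallest p the test allows is 0.1. At 8 somites Smchd1matΔ lay above Smchd1wt by 0.55 for Hoxb1 (SD within groups 0.29), 0.25 for Hoxa2 (SD 0.13) and 0.44 for Hoxb2 (SD 0.16). At 9 somites Smchd1matΔ lay below, by -0.41 for Hoxb1 (SD 0.13) and -0.35 for Hoxa2 (SD 0.14). Each of the 5 had p = 0.1 (exact permutation test, two-sided) and an adjusted p of 0.4 over the 24 comparisons. Of all 16729 genes on the log2 CPM scale, 9.31% had every Smchd1matΔ embryo above at 8 somites and 6.64% every one below at 9 somites. From 6 to 11 somites the shares of genes were 1.18%, 3.62%, 9.31%, 6.44%, 1.12% and 13.4% above, and 2.15%, 2.03%, 7%, 6.64%, 0.897% and 12.9% below. The values at 8 somites moved with single embryos, to 0.27 for Hoxb1 and 0.10 for Hoxa2 without Smchd1matΔ replicate 2 and to 0.83 and 0.40 without replicate 1. Marker lists also differed in value at 8 somites, with 0 genes past edgeR's threshold and 1 tailbud marker at an unadjusted p under 0.05. All 10 tailbud markers had higher values in Smchd1matΔ (median log2 fold change 0.41), and the 4 erythroid (median -2.89), 4 endothelial (median -0.38) and 4 visceral endoderm markers (median -0.88) had lower ones. At 9 somites 6 of the 10 tailbud markers had higher values (median 0.06), as had the 4 visceral endoderm markers (median 1.20). Their part in the members' values was not tested. At 6 somites the genotypes overlapped for each member. Hoxa2 differed there by -0.45 (SD 0.41, p = 0.229, adjusted p = 0.771, exact permutation test), by -0.22 without the shallowest library and by -0.64 without Smchd1matΔ replicate 2, where the groups did not overlap (p = 0.0286, adjusted p = 0.343, exact permutation test). Replicate 2, at 3.11, was the only Smchd1matΔ embryo above the Smchd1wt embryos, so leaving it out fixed that separation and its p in advance. On counts Hoxa2 differed at 6 somites by -0.24 (SE 0.23, adjusted p = 0.730, edgeR). Hoxd1 differed at 6 somites by -0.29 (SD 0.22, p = 0.0857, adjusted p = 0.4, exact permutation test). Without Smchd1wt replicate 4, the lowest of its group, Hoxd1 differed by -0.39 with no overlap. It differed by -0.16 without Smchd1matΔ replicates 1 and 2 of that stage, the 2 libraries richest in counts of a ribosomal RNA locus (2.77% and 1.82% of counts, against at most 1.28% in the others). Without the same 2 libraries Hoxa2 differed by -0.64 (p = 0.0667, the smallest possible, adjusted p = 0.343, exact permutation test), with no overlap. That left 2 Smchd1matΔ embryos, 1 of them the shallowest library, with 6 counts of Hoxa2. The share of all genes that did not overlap was not computed for these reduced sets of embryos. At 10 somites the difference was 0.33 for Hoxb1 and 0.34 for Hoxa2, and -0.15 and 0.0261 without the library that stood apart. On counts, 0 of 16729 genes passed edgeR's test at any single stage, with 87 to 1965 at an unadjusted p under 0.05. DESeq2 called 35 genes at 6 somites, 6 at 8 and 1 at 9 somites, no member among them.

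**Figure D3:**
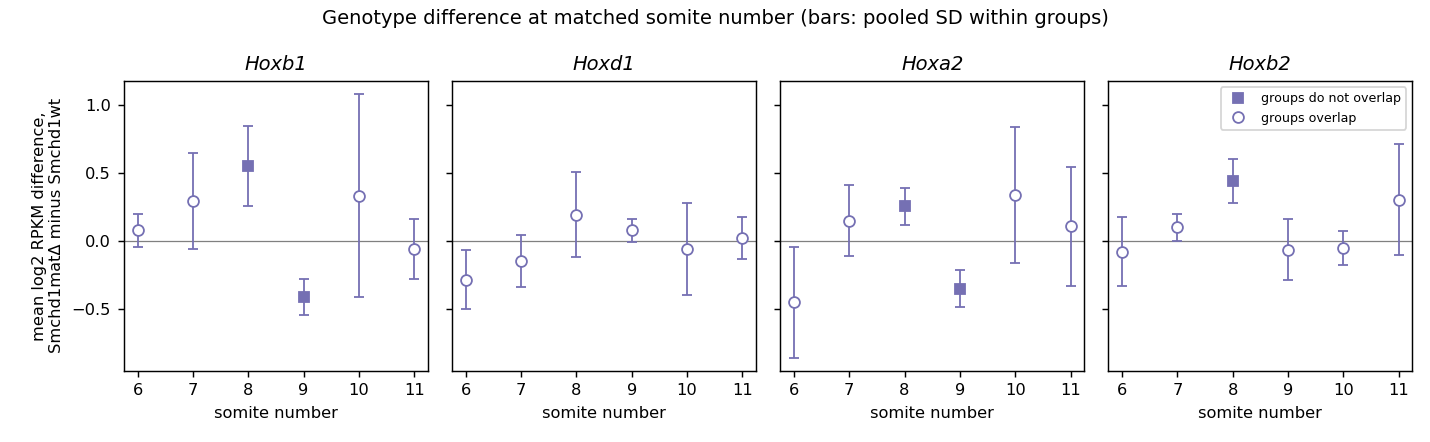
Difference in mean log2 RPKM, Smchd1matΔ minus Smchd1wt (vertical axis), at each somite number (horizontal axis) for the 4 members, with the pooled SD within groups as bars, and filled squares where no embryo of either genotype overlaps the other. Squares stand at 8 somites for Hoxb1, Hoxa2 and Hoxb2 (0.25 to 0.55) and at 9 somites for Hoxb1 and Hoxa2 (-0.41 and -0.35).

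Differences between members within an embryo do not depend on the scaling by library size, though the members differed in their r with depth. In Smchd1wt, Hoxd1 minus Hoxb1 was -0.06 ± 0.37 at 6 somites (SD, n = 4), 0.58 ± 0.080 at 9 somites (n = 3), 0.80 ± 0.71 at 10 somites (n = 4) and 0.29 ± 0.44 at 11 somites (n = 3). Its relation to somite number was not past the threshold over the 21 embryos (Pearson's r = 0.36, p = 0.113, adjusted p = 0.169, and Spearman's rho = 0.34, p = 0.132, adjusted p = 0.177, permutation tests, adjusted over 3 pairs of genes). The 3 embryos with 11 somites were equally far from the median stage. Without 2 of them, replicates 1 and 2, taken by order alone, r was 0.56. Without replicate 1, 2 or 3 alone it was 0.40, 0.49 and 0.33, and without the library that stood apart it was 0.30. In Smchd1matΔ embryos the difference was -0.43 ± 0.20 at 6 somites (n = 4), with Hoxb1 above Hoxd1 in all 4, and 1.07 ± 0.047 at 9 somites (n = 2). It was 0.37 ± 0.036 at 11 somites (n = 2). The difference between genotypes was not past the threshold, with Smchd1matΔ minus Smchd1wt at -0.21 when averaged over stages (p = 0.167, adjusted p = 0.500, permutation test within stages). Hoxb1 minus Hoxb2 (r = -0.26, adjusted p = 0.283, rho = -0.31, adjusted p = 0.177) and Hoxa2 minus Hoxb2 (r = -0.36, adjusted p = 0.169, rho = -0.31, adjusted p = 0.177) also showed no relation to somite number past the threshold (permutation tests), with r = -0.47 and -0.50 without the same 2 embryos. Their genotype differences were 0.07 (adjusted p = 0.653) and -0.09 (adjusted p = 0.653, permutation tests).

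**Figure D4:**
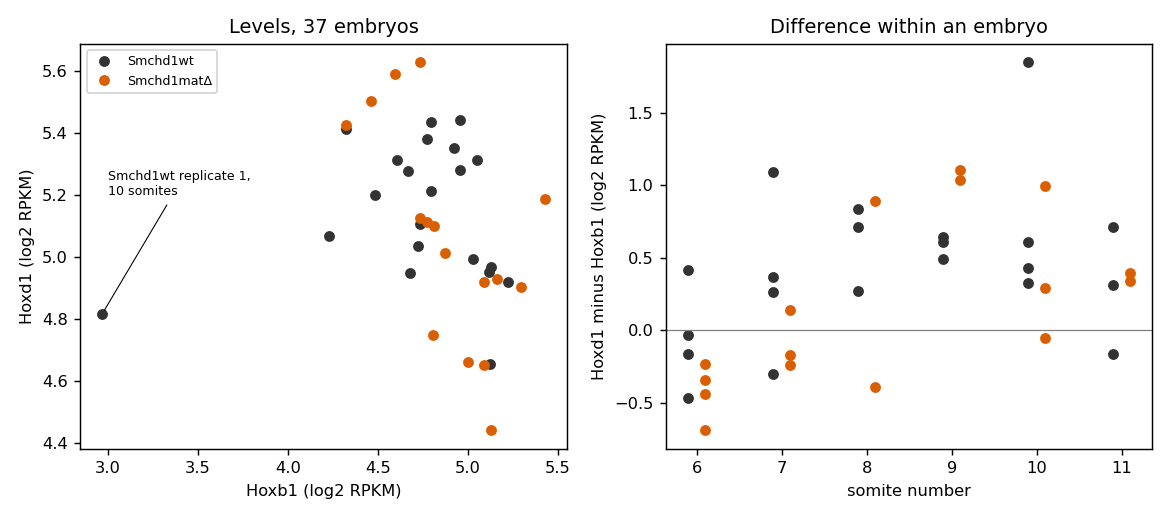
Left, log2 RPKM of Hoxd1 (vertical) against Hoxb1 (horizontal) in 37 embryos, Smchd1wt in grey and Smchd1matΔ in orange, with the Smchd1wt library that stood apart marked. Right, Hoxd1 minus Hoxb1 within each embryo (log2 RPKM) by somite number, where the 4 Smchd1matΔ embryos with 6 somites lie below 0 and the 5 embryos with 9 somites of either genotype lie above it.

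Genes that act with or upstream of groups 1 and 2 were followed over the same stages. Of all genes tested, 5.76% passed the threshold for a slope in Smchd1wt and 4.19% in Smchd1matΔ embryos. Of 9 HOX cofactors of the PBX, MEIS and PKNOX families, 2 rose in Smchd1wt, Pbx2 by 0.07 (adjusted p = 0.00289) and Pknox1 by 0.10 (adjusted p = 0.00664). In Smchd1matΔ embryos 1 of 9 fell, Pbx3, with a slope of -0.15 (adjusted p = 0.0413). The median slope of the 9 was 0.02 and -0.01. Of 14 genes of retinoic acid supply, clearance and reception, Cyp26a1, which degrades retinoic acid in the tailbud, rose in Smchd1wt by 0.21 (adjusted p = 0.00253) and the receptor gene Rxrg fell by 0.61 (adjusted p = 1.15e-05). In Smchd1matΔ embryos Cyp26a1 rose by 0.30 (adjusted p = 8.76e-05) and 3 genes fell, Rxrg (-0.55), Rarb (-0.37) and Aldh1a2 (-0.45, adjusted p = 0.0438). Aldh1a2 makes retinoic acid and is itself 1 of the 6 somite markers, with a median of 11.9 CPM against 15.2 CPM for their sum. That sum is therefore not independent of the slope of Aldh1a2. It reached 164 CPM in 1 Smchd1matΔ embryo, against at most 26.2 CPM in any Smchd1wt embryo. Per the methods of the study, tailbuds were cut below the last formed somite so as to leave somites out. The part of somite tissue in the slope of Aldh1a2 was not tested.

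Of 9 activators of trunk Hox genes in the tailbud, Gdf11, a TGF-beta ligand that times the trunk-to-tail transition, rose in Smchd1wt by 0.24 (adjusted p = 6.50e-04). Cdx1, a homeobox activator of Hox genes, fell by 0.34 (adjusted p = 2.62e-05) and the ligand gene Wnt8a fell by 0.33 (adjusted p = 0.00210). The same counts, 1 up and 2 down, held in Smchd1matΔ embryos, with slopes of 0.25, -0.47 and -0.47. Of 12 genes of the hindbrain network of groups 1 and 2, 9 passed the filter in Smchd1wt, and Nr2f2, a nuclear receptor gene, rose by 0.24 (adjusted p = 0.00439). In Smchd1matΔ embryos 0 of 9 passed the threshold (edgeR), and 2 had an unadjusted p under 0.05, as had 20.2% of all genes. The slopes of this list were not shown to differ between genotypes, with 0 of 9 genes at an unadjusted p under 0.05 in that test. Of 8 transcripts within the Hox clusters that do not encode HOX proteins, Hoxb5os rose by 0.25 (adjusted p = 0.00123) in Smchd1wt. Hoxb3os, which overlaps Hoxb2, had a slope of -0.02 (adjusted p = 0.595), and Hotairm1, a long noncoding RNA of the HoxA cluster, -0.09 (adjusted p = 0.144). In Smchd1matΔ embryos Hoxb5os and Hoxaas3 rose, by 0.25 and 0.08. The median slopes in Smchd1wt were -0.02 for the retinoic acid genes, -0.03 for the activators, -0.02 for the hindbrain network and -0.00103 for the cluster transcripts, and in Smchd1matΔ embryos -0.04, 0.01, 2.53e-05 and 0.04. In the comparison of genotypes over all stages 0 genes of these 5 lists passed edgeR's test. An unadjusted p under 0.05 was found for 1 retinoic acid gene, 3 activators and 1 hindbrain gene, and for 5.67% of all genes.

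The genes most like each member over the 37 embryos were taken by Pearson's r of log2 CPM among 16728 other genes, as a description with no test, since embryos share stage and tissue composition. For Hoxb1 they were Dpysl5 (0.91) and Xpo5 (0.87), and without the library that stood apart these values were 0.80 and 0.75. For Hoxd1 they were Smtnl2 (0.84), Dennd2a (0.78) and Foxf1 (0.77). For Hoxa2 they were Adgrv1 (0.77), Gspt2 (0.77) and Lars (0.77), at 0.70, 0.65 and 0.69 without that library. For Hoxb2 they were Zfp444 (0.86), Chst7 (0.83) and Snrpb (0.81). No member was among the genes most like another. On this scale Hoxb1 and Hoxd1 were at r = -0.25, and -0.56 without the library that stood apart, Hoxb1 and Hoxa2 at 0.52 and 0.17, and Hoxa2 and Hoxb2 at 0.37 and 0.42. The 2 neighbours on chromosome 11, Hoxb1 and Hoxb2, were at 0.22 and 0.28. The tailbud marker sum was at r = 0.61 with Hoxb1, 0.27 with Hoxd1, 0.53 with Hoxa2 and 0.59 with Hoxb2, and without the library that stood apart at 0.31, 0.21, 0.28 and 0.70. The hindbrain marker sum was likewise at 0.54, 0.20, 0.25 and 0.62, and at 0.40, 0.15, 0.0214 and 0.66 without it. The sums of 4 endothelial and 4 neural crest markers had opposite signs for Hoxb1 (-0.50 and -0.54) and Hoxd1 (0.57 and 0.54). Without that library the values were -0.71 and -0.59 for Hoxb1 and 0.59 and 0.60 for Hoxd1. Most of the neural crest sum came from Ets1 (median 33.6 CPM). Sox10 was at 0 in 28 and Foxd3 at 0 in 32 of the 37 embryos, so this sum is no measure of neural crest alone. The part of these marker sums in the members' values was not tested.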

How the data were processed

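Tailbud RNA-seq libraries of 37 embryos, 1 per embryo, were grouped by labelled genotype and somite number. According to the labels and published methods, the authors prepared poly(A) libraries with stranded or unstranded TruSeq kits and sequenced single-end reads. Trim Galore 0.4.4, HISAT2 2.0.5 and GRCm38.p6 are named in the submitters' processing notes, and genes were quantified in SeqMonk. The deposited count table holds raw counts per gene, not normalised, and log2 RPKM values of Hox genes, which the authors had adjusted for total reads and length in SeqMonk, form another deposited table. A deposited table of the authors' own p-values and fold changes was not used.

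From the 35591 rows, 49 with a repeated identifier were dropped, leaving 35542 genes, and 27 names that had become dates were restored. Library pairs within a group differed beyond sampling noise (chi-square per degree of freedom of 5.12 to 72.3 over 42 pairs), so each library is 1 replicate. Litters are not given in the sources used here. Counts carry no molecular identifiers. Libraries held 916444 to 80579115 counts.

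Counts were fitted across all genes by quasi-likelihood F tests in edgeR 4.0.16 under R 4.3.3 (filterByExpr with a minimum count of 10, TMM) with Benjamini-Hochberg adjustment over all genes tested and a threshold of 0.05. Slopes used somite number alone within a genotype, genotype comparisons used stage as a factor and sex, and single stages used 1 fit of 12 groups. Log2 CPM values used a prior count of 2. Log2 RPKM values were compared by exact permutation of embryos, and differences within embryos with 100000 permutations. All tests were two-sided. DESeq2 1.42.0, other size factors, no filter, sex in or out, females alone, removal of libraries and a replicate block were alternatives. The fits were tested on simulated data.

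The genes described are the members, Smchd1, the 3 genes most like each member, and up to 4 genes per list with the smallest adjusted p in the Smchd1wt slope among those past the threshold. Genes named for the Smchd1matΔ slope were chosen after their values were seen, as were Hoxb3os and Hotairm1. A few genes are not reported here. Members and gene lists were chosen with earlier results of these data known.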

Additional observations from a re-analysis of the deposited data

Results flagged for a closer look

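In the Smchd1wt group with 10 somites, Hoxb1 of replicate 1 was at log2 RPKM 2.97, and its gap to the nearest of the other 3 embryos took a share of 0.905 of the range of the group, above the critical value of Dixon's test for 4 samples. Chance flags about 1 in 20 groups, and 1 of the 16 groups tested, 4 per gene, was so marked. The tailbud marker sum was lowest in the same library, and the part of its tissue make-up was not tested.

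Every Smchd1matΔ embryo lay on 1 side of every Smchd1wt embryo at 8 somites and on the other side at 9 somites for Hoxb1 (0.55 and -0.41 log2 RPKM, Smchd1matΔ minus Smchd1wt) and for Hoxa2 (0.25 and -0.35). The difference between the stages was not tested, and each stage holds 3 Smchd1wt and 2 Smchd1matΔ embryos. Of all 16729 genes on the log2 CPM scale, 9.31% had every Smchd1matΔ embryo above at 8 somites. At 9 somites 6.64% had every one below, and the share of genes with both was not computed. With 1 embryo left out the values at 8 somites ranged from 0.27 to 0.83 for Hoxb1 and from 0.10 to 0.40 for Hoxa2.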

How the results depend on the processing

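No member passed the threshold in the main results, and 1 alternative gave a call, the Smchd1matΔ slope of Hoxb1 under DESeq2 (-0.10, adjusted p = 0.0218). Of the other members' values under alternatives other than leaving out 1 embryo, 388 kept direction and side of the threshold and 21 changed sign, and with 1 embryo left out 1146 did and 64 changed sign. The cause of these changes was not tested.

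Among counts of genes past the threshold, 69 stayed within 1.5 times and 20 moved. With females alone the Smchd1wt slope gave 1802 genes in place of 856, the Smchd1matΔ slope 175 in place of 639, the genotype over all stages 1 in place of 2, and each window 0 in place of 1. With DESeq2 the Smchd1matΔ slope gave 1498, 6 to 8 somites 37, the window difference 2, and 6, 8 and 9 somites 35, 6 and 1 in place of 0. Without the filter on low counts the slope difference gave 39 in place of 0, 6 to 8 somites 39 and 8 somites 1. Without the 2 ribosomal RNA-rich libraries the Smchd1matΔ slope gave 372. Without libraries under 4000000 counts 6 to 8 somites gave 0 and 6 somites 3.

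Replicate numbers do not pair the embryos (r of -0.27 to 0.54 over 16 pairs, 4 above 0.1, 6 best with their own number). With the replicate block 1 gene passed over all stages and 0 in each window, and members changed sign at 6 to 8 somites (Hoxa2 -0.22), 9 to 11 somites (Hoxb1 0.0213), 6 somites (Hoxb2 -0.0080) and in the window difference (Hoxb2 0.0010). The block changed no member's call.

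With females alone the sign changed for the Smchd1matΔ slopes of Hoxa2 (0.0307) and Hoxb2 (-0.0021), the slope difference of Hoxb2 (-0.038), Hoxa2 over all stages (-0.0271), at 6 to 8 somites (-0.0123) and in the window difference (-0.054), and at 9 to 11 somites for Hoxd1 (-0.0316), Hoxa2 (-0.0571) and Hoxb2 (-0.0707). It also changed on counts for Hoxb2 at 9 (0.0323) and 11 somites (-0.11), Hoxb1 at 10 (-0.0424) and Hoxd1 at 11 somites (-0.0238). Without libraries under 4000000 counts it changed for the slope difference of Hoxb2 (-0.0071), the window difference of Hoxa2 (-0.0196) and Hoxb2 at 6 somites on log2 RPKM (0.0715), and without the 2 ribosomal RNA-rich libraries for Hoxb2 at 6 somites on counts (-0.11).

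The ranges that follow are those in which a sign or a count changed. Other values, none past a threshold, also moved by over 1.5 times, among them log2 RPKM differences of Hoxb1 and Hoxa2 at 8 somites and of Hoxa2 at 6 somites (-0.64 to -0.22). With 1 embryo left out, the Smchd1wt slope gave 593 to 1943 genes, 6 to 8 somites 0 to 2, 9 to 11 somites 0 to 1, 8 somites 0 to 2 and 6 somites 0 to 322, the last without Smchd1matΔ replicate 4. Slopes of Hoxb2 ranged from -0.0103 to 0.0308 in Smchd1wt and -0.0011 to 0.0303 in Smchd1matΔ, that of Hoxa2 in Smchd1matΔ from -0.0349 to 0.0102, and the slope difference of Hoxb2 from -0.0197 to 0.0245. The genotype effect on Hoxa2 ranged from -0.0252 to 0.0434 over all stages and -0.0611 to 0.0851 at 6 to 8 somites. At 9 to 11 somites it ranged from -0.21 to 0.0669 for Hoxb1, -0.0601 to 0.0841 for Hoxd1, -0.0413 to 0.20 for Hoxa2 and -0.0513 to 0.11 for Hoxb2, and the window difference from -0.0606 to 0.17 for Hoxa2 and -0.17 to 0.0031 for Hoxb2. On counts at single stages the ranges were -0.10 to 0.10 (Hoxb2 at 6 somites), -0.20 to 0.51 (Hoxd1 at 8), -0.27 to 0.13 (Hoxb2 at 9), -0.14 to 0.29, -0.27 to 0.14 and -0.10 to 0.0014 (Hoxb1, Hoxd1 and Hoxb2 at 10), and -0.20 to 0.081, -0.0656 to 0.11 and -0.17 to 0.35 (Hoxb1, Hoxd1 and Hoxa2 at 11). On log2 RPKM they were -0.19 to 0.0715 (Hoxb2 at 6), -0.17 to 0.55 (Hoxd1 at 8), -0.30 to 0.16 (Hoxb2 at 9), -0.15 to 0.52 and -0.28 to 0.14 (Hoxb1 and Hoxd1 at 10), and -0.17 to 0.0900, -0.055 to 0.13 and -0.14 to 0.35 (Hoxb1, Hoxd1 and Hoxa2 at 11). Hoxb1 minus Hoxb2, Smchd1matΔ minus Smchd1wt, ranged from -0.0151 to 0.11.

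Groups of 2 to 4 embryos limit the single-stage comparisons, and the shallowest library, of 916444 counts, held 6 of Hoxa2. Where 1 embryo remained in a group, it was assumed to vary like the others.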
